A study of Homo sapiens with 12 samples.

Results

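A set of 9 genes that earlier work in other tissues had described as targets of miR-10 was followed in neural progenitors derived from human embryonic stem cells (hESCs). These 9 genes, TIAM1, TFAP2C, KLF4, KLF11, E2F7, HOXD10, NF1, TRA2B and SRSF1, were selected by name among the 25718 genes in the count files, and a gene with several listed transcripts is represented by that of highest mean count. Of the 9 genes, 7 had a mean above 10 counts and were tested among 11451 such genes. HOXD10 and SRSF1 had no counts.

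The cells were H9, an established hESC line. They had been transduced with a lentiviral vector (MOI 50, infectious particles per cell) from which doxycycline induces either miR-10a or miR-10b, and were patterned towards ventral midbrain, with sonic hedgehog (SHH) at 200 ng/ml. Doxycycline was present from day 11 to day 14 in 3 samples per vector, and the 3 control samples per vector were the same transduced cells without doxycycline, harvested on day 14 as well. Each vector therefore had its own control, and an effect of doxycycline itself cannot be told apart from that of the miRNA. All results come from 1 cell line. In such bulk samples, fewer cells of a type and less RNA per cell cannot be told apart. The labels number the replicates without saying that they were separate cultures. The p-values therefore rest on the spread between these samples, which may leave out variation between cultures.

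miRNAs guide silencing complexes to mRNAs, mostly through base pairing between the seed near their 5′ end and sites in the 3′UTR, which lowers mRNA stability and translation. miR-10a and miR-10b lie in HOX clusters, share their seed and are expressed in the caudal nervous system. Outside it they are best known from tumours: HOXD10 was described as a miR-10b target in breast cancer cells, and the splicing factors SRSF1 and TRA2B as miR-10 targets in neuroblastoma cells.

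The seed and the sites that the published targets carry are shown because the selection of these genes rests on such pairing. The mature miR-10a sequence (RefSeq) is given with the seed, bases 2 to 8, in capitals.
hsa-miR-10a-5p: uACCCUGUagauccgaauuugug
The complements searched for on the transcribed strand of the 3′UTR were ACAGGGTA (8mer), ACAGGGT (7mer-m8), CAGGGTA (7mer-A1) and CAGGGT (6mer), with each position counted once as its longest match. The following stretches of the GRCh37 genome, on the strand of the transcript, show 8mer and 7mer matches in capitals. They are given for the genes that fell and for those with an 8mer. Coordinates are those of the capitals.
E2F7, 7mer-A1, chr12:77417243-77417249, minus strand: cacatttttttCAGGGTAtgacgacttgaa
E2F7, 7mer-A1, chr12:77415965-77415971, minus strand: ttcaatctgtgCAGGGTAtatgcatgttaa
TIAM1, 8mer, chr21:32491516-32491523, minus strand: atgccaacgaaACAGGGTAaacatgctcaa
TRA2B, 7mer-m8, chr3:185633004-185633010, minus strand: tcaggaaatcaACAGGGTcccagcaagtgg
TRA2B, 7mer-A1, chr3:185635186-185635192, minus strand: tctactgaatcCAGGGTAttctgaagatcg
TFAP2C, 8mer, chr20:55214085-55214092, plus strand: ttcatatatatACAGGGTAttaagaattaa
KLF11, 8mer, chr2:10192982-10192989, plus strand: gtagaaataagACAGGGTActaatttttat

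All 9 genes held an 8mer or a 7mer in the 3′UTR of their canonical transcript (GENCODE 44 on GRCh37), which was the case for 19.4% of 9226 tested genes whose 3′UTR is annotated. Having been chosen as reported targets, the genes were likely to carry such a match, and it is given as a description. The best match was an 8mer in 3 of the genes (TIAM1, TFAP2C and KLF11) and in 2.35% of the tested genes. It was a 7mer-m8 in 2 genes (TRA2B and SRSF1), against 12.6%, and a 7mer-A1 in 4 genes (E2F7, KLF4, HOXD10 and NF1), against 4.47%. A 6mer alone was found in 18.3% of the tested genes, and no match in 62.3%. E2F7 held 2 separate 7mer-A1 matches 549 and 1827 nt after the stop codon, and TRA2B held a 7mer-A1 near the start of its 3′UTR and a 7mer-m8 at 2496 of 3160 nt. Each also held a 6mer, at 2385 nt in E2F7 and at 1572 nt in TRA2B. The single match of SRSF1 (chr17:56081956-56081962, minus strand) lay at 808 of 4490 nt, that of HOXD10 (chr2:176984235-176984241, plus strand) at 279 of 709 nt and that of KLF4 (chr9:110247730-110247736, minus strand) at 299 of 902 nt. The match of NF1 (chr17:29702087-29702093, plus strand) lay at 917 of 3523 nt, in the 3′UTR of the full-length transcript. The NF1 transcript counted here is a short form of 2939 nt with an end of its own, which was not searched.

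**Figure D1:**
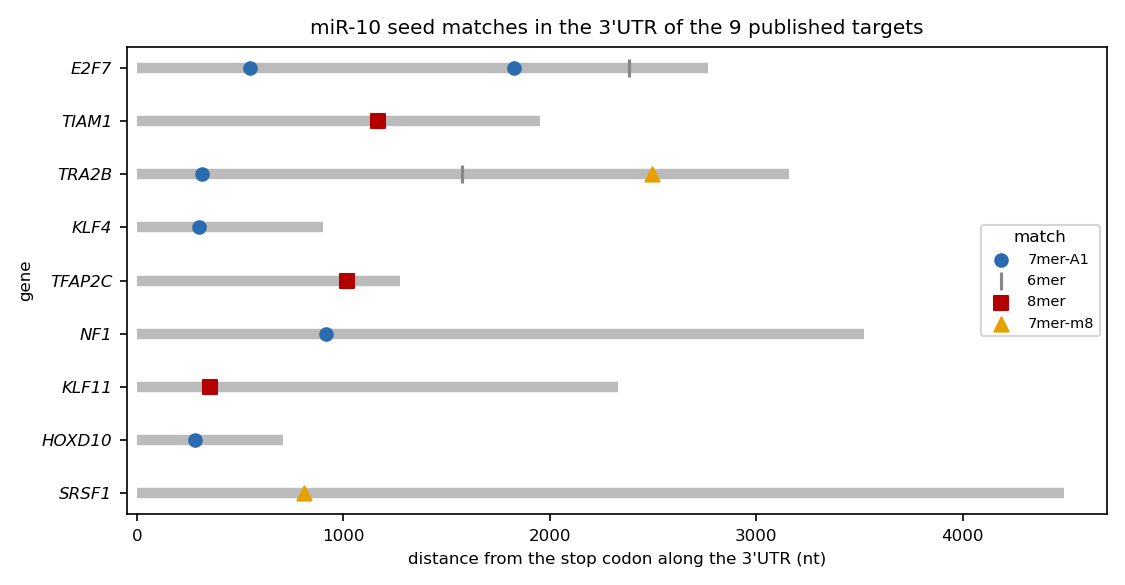
Position of each seed match (symbols by kind of match) along the annotated 3′UTR (grey bar) of the 9 published targets, as distance from the stop codon in nt. E2F7 and TRA2B have 3 matches each, the other genes 1.

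Total counts per sample were between 10545487 and 14165426, and CPM denotes counts per 1000000 counts of the sample. A limit of detection of 3 counts equals 0.212 to 0.284 CPM at these totals. Within each vector the controls had the higher totals without overlap. The precursors showed the induction: MIR10A had 723.7 ± 10.8 CPM (SD, n = 3) with doxycycline and 0.999 ± 0.363 without it in miR-10a cells, and MIR10B had 2618.6 ± 67.5 CPM and 3.55 ± 0.81 in miR-10b cells. Of 7 neural progenitor markers 6 were above the count minimum, with PAX6, which has several transcripts, at a mean of at most 1 count. In the miR-10b doxycycline group replicate 2 differed more from the other replicates than any other pair, with a chi-square per degree of freedom of 2.92 and 3.73 against 1.20 to 1.81, so results were also computed without this sample.

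Some marker sums moved with doxycycline. Summed over the 7 neural progenitor markers, the level was 10255 to 10610 CPM with doxycycline and 10638 to 10708 without it in miR-10a cells, and 11326 to 11496 and 11767 to 11911 in miR-10b cells. Most of this sum was NES and VIM. In miR-10a cells NES had 4341 to 4514 CPM with doxycycline and 4577 to 4622 CPM without it. Its level in miR-10b cells was 4574 to 4835 and 5139 to 5188 CPM. VIM overlapped between the groups of each vector, so the lower progenitor sum was mainly that of NES. The 5 pluripotency markers summed to 1526 to 1571 and 1643 to 1721 CPM in miR-10a cells and to 996.0 to 1009 and 1229 to 1258 CPM in miR-10b cells. This sum was mostly LIN28A, an RNA-binding protein that neural progenitors also express, at 1371 to 1428 CPM with doxycycline and 1503 to 1572 CPM without it in miR-10a cells and at 883.9 to 906.9 and 1124 to 1149 CPM in miR-10b cells. DPPA4 overlapped between the groups of each vector, at 141.9 to 155.0 and 140.1 to 148.4 CPM and at 101.8 to 112.0 and 105.0 to 110.4 CPM, and POU5F1, NANOG and ZFP42 had a mean of at most 1 count, so the shift of this sum was that of LIN28A. The 5 neuronal markers summed to 552.2 to 575.4 and 550.8 to 557.2 CPM in miR-10a cells and to 593.4 to 619.5 and 552.6 to 578.8 CPM in miR-10b cells. Nearly all of the neuronal sum was INA, with 575.4 to 601.3 and 537.4 to 564.3 CPM in miR-10b cells. The INA groups overlapped in miR-10a cells. Markers of neural crest and surface ectoderm stayed between 0.505 and 1.52 CPM in all samples and those of mesoderm and endoderm between 0.641 and 2.37 CPM. For a marker with several listed transcripts, such as TFAP2A with 3, reads shared between transcripts appear to have been left out. These low sums therefore do not show that such cells were absent. The part of these shifts in the results below was not tested.

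The 7 detected genes spanned a wide range of levels. Per kb of transcript, E2F7 was the most abundant, with a level from 27.9 to 40.2 CPM per kb over the 12 samples, followed by medians of 14.7 for TIAM1, 10.1 for TRA2B, 2.59 for KLF4, 0.732 for TFAP2C, 0.678 for NF1 and 0.247 CPM per kb for KLF11. The sample ranges of TFAP2C (0.379 to 0.979 CPM per kb) and NF1 (0.541 to 0.832 CPM per kb) overlapped, while those of all other neighbours in this order did not. For NF1 and KLF11, with 3 listed transcripts each, and for TRA2B, with 2, the level is that of 1 transcript, and reads shared between transcripts appear to have been left out of the counts.

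The first question was whether these genes were lower after the pulse of miR-10. In miR-10a cells 1 of the 7 tested genes, E2F7, fell and none rose (edgeR's quasi-likelihood test, adjusted p under 0.05), while 0.742% of all tested genes fell and 0.472% rose. In miR-10b cells 3 of 7, E2F7, TIAM1 and TRA2B, fell and none rose, against 7.15% and 8.18% of all tested genes. The average of both vectors, which uses the same 12 samples, gave the same 3 genes lower and none higher, against 6.22% and 7.67% of all tested genes. The median log2 fold change of the 7 genes was -0.097 with miR-10a, -0.23 with miR-10b and -0.16 on average, and the medians of all tested genes were 0.010, 0.021 and 0.015. All doxycycline samples lay below all controls for 2 of 7 genes with miR-10a, E2F7 and TIAM1, and for 3 of 7 with miR-10b, as for 7.75% and 12.3% of all tested genes. Both vectors showed this separation for 2 of the 7 genes and for 2.95% of all tested genes. The 7 genes include only those with enough counts, and HOXD10 and SRSF1 contribute nothing to these numbers.

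Counts of lower and higher genes depended on the scaling. Over both vectors 712 genes were lower and 878 higher, against 852 and 665 with TMM factors and 743 and 464 with DESeq2. With miR-10b the numbers were 819 and 937, against 963 and 766 with TMM factors and 808 and 498 with DESeq2, and with miR-10a they were 85 and 54, against 93 and 36 with DESeq2. For the difference between the vectors, 158 and 66 genes became 165 and 22 with DESeq2. The calls of E2F7, TIAM1 and TRA2B were kept with both of these scalings.

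**Figure D2:**
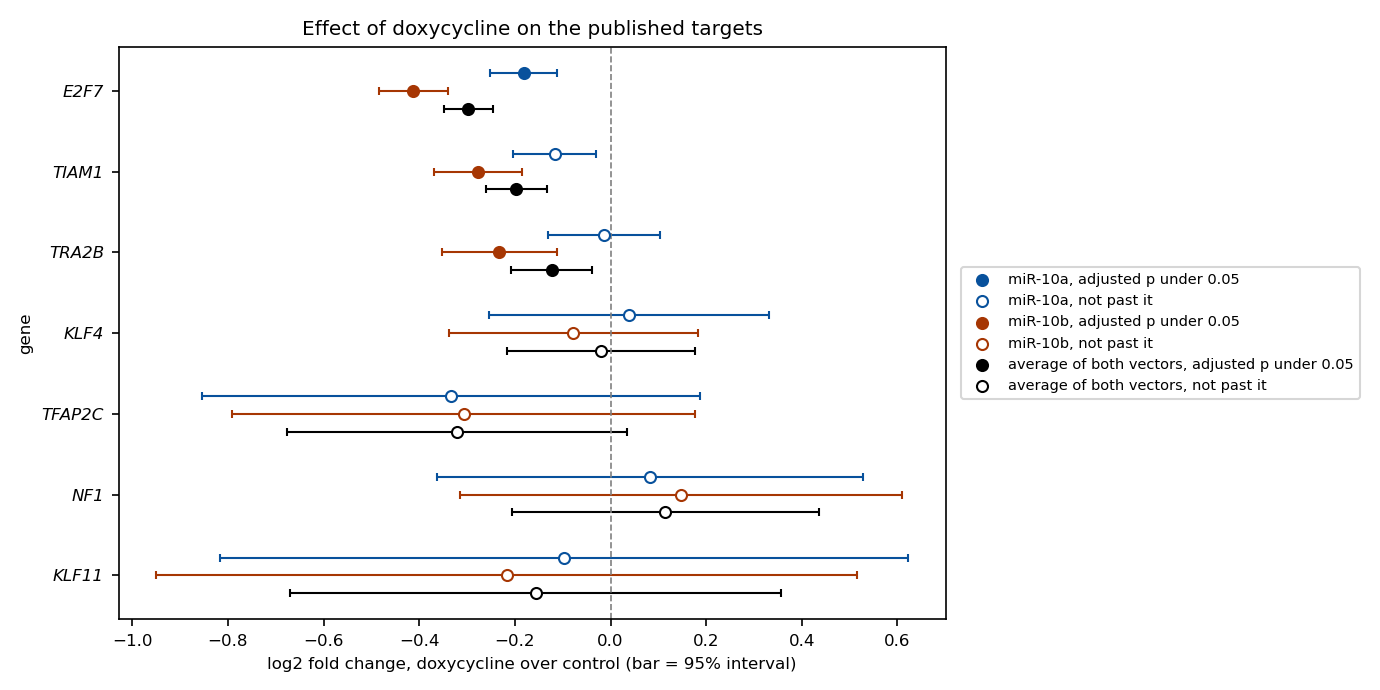
Log2 fold change of doxycycline over control for the 7 tested genes, with 95% intervals, for miR-10a, miR-10b and the average of both. Filled symbols mark an adjusted p under 0.05, which E2F7 reached in all 3 comparisons, TIAM1 and TRA2B with miR-10b and on average, and the other genes in none.

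E2F7 (NM_203394, chr12:77415028-77459349, minus strand), an atypical E2F that represses cell cycle genes, had the lowest adjusted p of the 7 genes in all comparisons. In miR-10a cells it had 200.0, 197.8 and 204.4 CPM with doxycycline and 228.2, 224.3 and 230.7 CPM without it. In miR-10b cells E2F7 had 168.2, 160.2 and 169.6 CPM with doxycycline and 221.2, 220.7 and 220.9 CPM without it. The doxycycline samples were below the controls of their vector in all 6 cases, and those of miR-10b were also below those of miR-10a, whereas the controls of both vectors were within 220.7 to 230.7 CPM. With miR-10a E2F7 fell by 11.8% (log2 fold change -0.18, SE 0.035, adjusted p = 0.0019, edgeR). With miR-10b it fell by 24.9% (log2 fold change -0.41, SE 0.035, adjusted p = 5.2e-11, edgeR), and on average by 18.6% (95% interval from -21.4% to -15.7%). Leaving out any 1 sample kept all 3 calls, with log2 fold changes from -0.19 to -0.17 for miR-10a and from -0.43 to -0.39 for miR-10b.

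E2F7 was also the only one of the 7 genes past the threshold for a difference between the vectors, which 1.38% of all tested genes passed in this direction. The decrease was larger with miR-10b, by -0.23 on the log2 scale (SE 0.050, adjusted p = 0.0063, edgeR interaction term). The difference stayed between -0.25 and -0.21 with each sample left out, with an adjusted p of at most 0.026 (edgeR). The vectors also differed in the precursor counts given above, and the part of this in the difference was not tested.

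Of the 7 other E2F genes 5 were tested, none was lower, and 1 was higher both with miR-10b and on average, with a median log2 fold change of 0.021 on average. That gene was E2F2, an activator of the cell cycle, with 72.3 to 79.2 CPM with doxycycline and 67.2 to 68.2 CPM without it in miR-10b cells. Its average log2 fold change was 0.10 (SE 0.033, adjusted p = 0.030, edgeR), but it was not past the threshold with TMM factors (0.091, adjusted p = 0.062) or DESeq2 (0.087, adjusted p = 0.12) and in 7 of the 12 fits that left out 1 sample. With miR-10b alone its log2 fold change was 0.15 (SE 0.047, adjusted p = 0.028, edgeR), and it was past the threshold in 12 of 19 alternative fits, with adjusted p up to 0.16. E2F8, the closest relative of E2F7, had a mean of 19.3 counts over 3 listed transcripts and an average log2 fold change of 0.021 (SE 0.21), too imprecise for a comparison with E2F7.

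TIAM1 (NM_003253, chr21:32490734-32932290, minus strand) encodes an exchange factor that activates the small GTPase RAC, which drives actin remodelling and migration. In miR-10a cells it had 117.6, 111.3 and 119.1 CPM with doxycycline and 125.9, 128.2 and 122.9 CPM without it. In miR-10b cells TIAM1 had 78.0, 78.0 and 80.2 CPM with doxycycline and 99.7, 96.2 and 90.4 CPM without it. Within each vector all doxycycline samples were below all controls. With miR-10b TIAM1 fell by 17.5% (log2 fold change -0.28, SE 0.046, adjusted p = 2.9e-05, edgeR), and on average by 12.8% (log2 fold change -0.20, SE 0.031, adjusted p = 1.8e-05). With miR-10a its log2 fold change of -0.12 (SE 0.042) was not past the threshold (adjusted p = 0.24, edgeR). The difference between the vectors was -0.16 (SE 0.062) and was not past it either (adjusted p = 0.22, edgeR), so that an unequal response of TIAM1 was not shown. All 6 miR-10b samples, controls included, were below all 6 miR-10a samples. The distance between the controls of the vectors was larger than the effect of doxycycline.

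Among the genes that act with TIAM1, 8 of 13 listed RAC exchange factors, RAC genes and PAK kinases were tested, and none passed the threshold with miR-10a. With miR-10b 1 was lower, and on average 1 was lower and 1 higher, with a median log2 fold change of 0.025. The lower gene was VAV3, another RAC exchange factor, with 20.2 to 22.8 CPM with doxycycline and 24.4 to 25.9 CPM without it in miR-10b cells and a log2 fold change there of -0.24 (SE 0.080, adjusted p = 0.036, edgeR), lost with DESeq2 (adjusted p = 0.059) and in 5 of the 12 fits that left out 1 sample. Its average log2 fold change of -0.17 (SE 0.060, adjusted p = 0.049) was lost with DESeq2 (adjusted p = 0.068) and in 10 of the 12 fits that left out 1 sample. RAC3, a RAC GTPase, had an average log2 fold change of 0.15 (SE 0.042, adjusted p = 0.016, edgeR), which was lost with DESeq2 (adjusted p = 0.075) and without miR-10a doxycycline replicate 1 (0.12, adjusted p = 0.069). RAC1, with 2 transcripts, had a mean of 3.83 counts and was not tested. VAV3 also has 2 listed transcripts, and its level is that of 1 transcript.

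TRA2B (NM_004593, chr3:185632346-185655891, minus strand) encodes a splicing activator of the SR-like family. In miR-10a cells it had 44.9, 43.7 and 42.9 CPM with doxycycline and between 42.6 and 46.4 CPM without it. With the miR-10b vector it had 36.4, 37.8 and 37.2 CPM with doxycycline and 41.1, 45.2 and 44.5 CPM without it. The miR-10b doxycycline samples were the 3 lowest of the 12, and the other 3 groups overlapped. With miR-10b TRA2B fell by 14.9% (log2 fold change -0.23, SE 0.059, adjusted p = 0.0052, edgeR), a call that was kept with each sample left out. With miR-10a the log2 fold change was -0.014 (SE 0.058, adjusted p = 0.96, edgeR), with a 95% interval from -8.72% to 7.46%. The difference between the vectors, -0.22 (SE 0.083), was not past the threshold (adjusted p = 0.20, edgeR). The average effect of -0.12 (SE 0.041, adjusted p = 0.041) stayed past it without miR-10a control replicate 2, miR-10b doxycycline replicate 2 or miR-10b control replicate 1, and was lost without any 1 of the other 9 samples (adjusted p between 0.053 and 0.12, edgeR).

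SRSF1, the founding SR splicing factor, could not be measured. All 3 of its listed transcripts, NM_001078166, NM_006924 and NR_034041 (gene at chr17:56078280-56084707, minus strand), had 0 counts in all 12 samples, which allows up to 3 counts per sample by counting error alone. Because reads common to several transcripts appear not to have been counted, this is no sign of low SRSF1 expression. Of the 12 other SR and TRA2 genes 9 were tested. None passed the threshold with miR-10a or on average, and the median log2 fold change on average was -0.016. With miR-10b 1 was lower and 1 higher, both SR splicing factors. SRSF9 had a log2 fold change of -0.13 (SE 0.037, adjusted p = 0.014, edgeR), which was lost without miR-10b doxycycline replicate 1 (-0.12, adjusted p = 0.053) or miR-10b control replicate 3 (-0.11, adjusted p = 0.078). SRSF4 had 0.11 (SE 0.036, adjusted p = 0.043), which was lost with TMM factors, with DESeq2 (adjusted p = 0.094 and 0.13) and in 7 of the 12 fits that left out 1 sample, and was 0.051 without miR-10b doxycycline replicate 2 (adjusted p = 0.35).

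**Figure D3:**
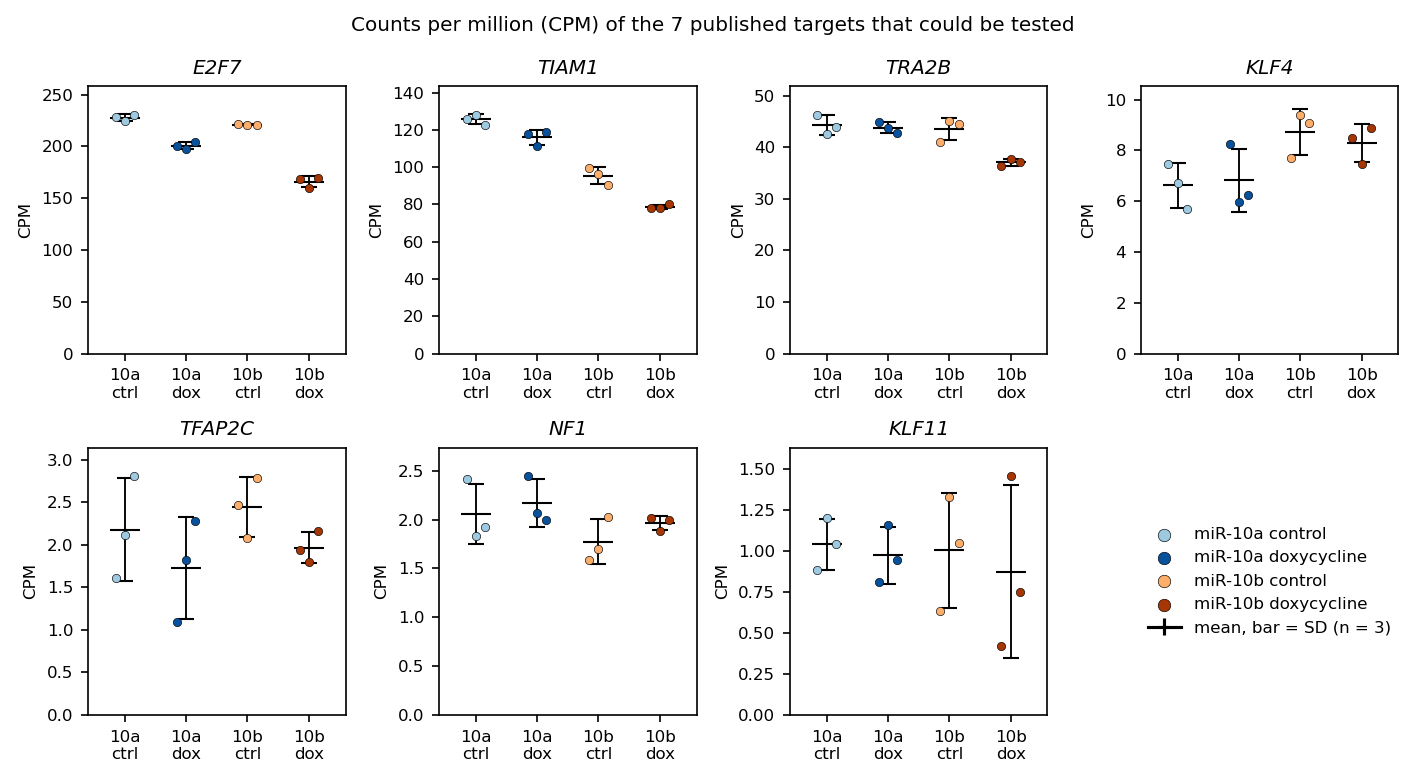
CPM of the 7 tested genes in each of the 12 samples (points), with mean and SD (n = 3) per group and every axis starting at 0. The doxycycline samples of E2F7 and TIAM1 lie below the controls of the same vector in both vectors and, in miR-10b cells, those of TRA2B lie below the controls, while the groups overlap within each vector for KLF4, TFAP2C, NF1 and KLF11.

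The 4 remaining tested genes had 5 to 127 counts per sample, and their intervals were wide. KLF4 (NM_004235, chr9:110247133-110252763, minus strand), a pluripotency-associated zinc finger factor, had 8.24, 5.96 and 6.26 CPM with doxycycline and 7.47, 6.71 and 5.69 CPM without it in miR-10a cells. The miR-10b cells had 8.50, 7.46 and 8.90 CPM with doxycycline and 7.70, 9.41 and 9.09 CPM without it. The groups overlapped within both vectors, and the average change was -1.35% with a 95% interval from -13.9% to 13.0% (adjusted p = 0.93, edgeR). A decrease as large as the 18.6% of E2F7 lay outside this interval.

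TFAP2C (NM_003222, chr20:55204362-55214339, plus strand), an AP-2 factor of early ectoderm, trophoblast and germ cells, was detected with 12 to 37 counts per sample. In miR-10a cells it had 1.09, 1.82 and 2.28 CPM with doxycycline and 1.61, 2.12 and 2.80 CPM without it. With the miR-10b vector TFAP2C had 1.94, 1.80 and 2.16 CPM with doxycycline and 2.46, 2.07 and 2.78 CPM without it. The means were lower with doxycycline in both vectors, but the samples overlapped. The average log2 fold change, -0.32 (SE 0.18), was the most negative of the 7 genes and was not past the threshold (adjusted p = 0.25, edgeR), with a 95% interval from -37.4% to 2.46%. At this depth a decrease of the size seen for E2F7 or TIAM1 was not detectable for TFAP2C. Of the 4 other TFAP2 genes only TFAP2E was tested, with 3.05 ± 0.26 CPM with and 3.52 ± 0.28 CPM without doxycycline in miR-10a cells and 2.98 ± 0.11 and 2.98 ± 0.59 CPM in miR-10b cells (SD, n = 3), and an average log2 fold change of -0.10 (SE 0.13, adjusted p = 0.70, edgeR). TFAP2A and TFAP2B, which mark neural crest, had means of at most 1 count. TFAP2A has 3 listed transcripts, so its low count is no sign of low expression, while TFAP2B has 1.

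KLF11 (NM_003597, chr2:10182976-10194963, plus strand), a TGFβ-inducible KLF repressor, had 5 to 18 counts per sample. In miR-10a cells it had 0.815, 1.16 and 0.948 CPM with doxycycline and 0.884, 1.20 and 1.04 CPM without it. In miR-10b cells KLF11 had 0.421, 1.46 and 0.748 CPM with doxycycline and 0.635, 1.33 and 1.05 CPM without it. The groups overlapped in both vectors, and the average log2 fold change of -0.16 (SE 0.25, adjusted p = 0.76, edgeR) changed sign without miR-10b doxycycline replicate 1 (0.0081). The average change had a 95% interval from -37.2% to 28.0%, which holds both no change and a decrease as large as that of E2F7.

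Of the 15 other KLF genes 7 were tested, and 1 was lower with miR-10b and on average, with a median log2 fold change of 0.029 on average. This was KLF13, a transcription factor with a 7mer-m8 match, with 201.0 to 209.3 CPM with doxycycline and 227.0 to 238.7 CPM without it in miR-10b cells, and 214.7 to 229.6 and 214.1 to 221.4 CPM in miR-10a cells. It fell with miR-10b by 0.19 on the log2 scale (SE 0.036, adjusted p = 2.5e-04, edgeR). The average of -0.080 (SE 0.025, adjusted p = 0.031) was lost in 6 of the 12 fits that left out 1 sample.

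NF1 (NM_001128147, chr17:29421945-29709134, plus strand) encodes neurofibromin, which switches off RAS. Its counted short transcript had 20 to 30 counts per sample, with 2.45, 2.07 and 1.99 CPM with doxycycline and 2.41, 1.84 and 1.92 CPM without it in miR-10a cells. The miR-10b samples had 2.02, 1.89 and 2.00 CPM with doxycycline and 1.59, 1.70 and 2.03 CPM without it. The groups overlapped, and the average log2 fold change was 0.11 (SE 0.16, adjusted p = 0.73, edgeR), the only positive one of the 7 genes. The 95% interval ran from -13.3% to 35.2%. The full-length transcript NM_001042492 had 4 to 19 counts per sample and NM_000267 had 0, so these values say little of the NF1 mRNA as a whole. Exons of NF1 overlap those of EVI2A on the other strand, and a strand setting for the counting is not given in the sources used here.

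In the RAS pathway on which NF1 acts, 9 of 12 listed RAS GTPase-activating proteins, their partners and RAS genes were tested, and none passed the threshold with miR-10a. With miR-10b 2 were lower and 2 higher, and on average 1 was lower and 2 were higher, with a median log2 fold change of 0.053. NRAS, a RAS GTPase with only a 6mer, had 283.6 to 315.2 CPM with doxycycline and 386.9 to 397.8 CPM without it in miR-10b cells, and 355.4 to 379.0 and 395.3 to 406.8 CPM in miR-10a cells. It fell on average by 0.25 on the log2 scale (SE 0.025, adjusted p = 3.4e-09, edgeR), and all 12 fits that left out 1 sample kept the call. RASA3, a RAS GTPase-activating protein, was higher on average (0.12, SE 0.032, adjusted p = 0.0074, edgeR) and with miR-10b (0.16, SE 0.046, adjusted p = 0.011), the latter lost with DESeq2 (adjusted p = 0.050) and without miR-10b doxycycline replicate 2 (0.12, adjusted p = 0.085). DAB2IP, of the same family, was higher on average (0.096, SE 0.030, adjusted p = 0.029, edgeR) but not with TMM factors or DESeq2 (adjusted p = 0.061 and 0.12) or in 6 of the 12 fits that left out 1 sample. RASA2, a further family member, was lower with miR-10b (-0.20, SE 0.061, adjusted p = 0.021, edgeR), a call lost without miR-10b doxycycline replicate 1 (-0.14, adjusted p = 0.17) or miR-10b control replicate 3 (-0.17, adjusted p = 0.10).

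HOXD10 (NM_002148, chr2:176973518-176984665, plus strand), a posterior HOX factor, is a widely cited miR-10b target. Its only listed transcript had 0 counts in all 12 samples, which allows up to 0.212 to 0.284 CPM per sample, so no decrease could be measured. Its exons overlap those of HOXD11. Of the 8 other HOXD genes none reached the count minimum and 3 were at 0 in all samples. Of 4 genes described downstream of HOXD10 in breast cancer cells, RHOC, PLAUR, MMP14 and ITGA3, only MMP14, a membrane-bound matrix metalloproteinase, was tested. It had 23.8 ± 0.7 CPM with and 21.4 ± 0.9 CPM without doxycycline in miR-10a cells and 25.9 ± 2.9 and 25.1 ± 0.9 CPM in miR-10b cells (SD, n = 3), with an average log2 fold change of 0.10 (SE 0.055, adjusted p = 0.25, edgeR).

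A second list held 24 further genes with a published link to miR-10, put together with earlier results of these data known. Of these, 20 had an 8mer or 7mer match, 9 were tested and 6 were at 0 in all samples. None of the 9 passed the threshold with miR-10a, while 5 fell with miR-10b and on average and none rose, with median log2 fold changes of -0.034, -0.15 and -0.10. Of all tested genes 7.15% fell with miR-10b, and because the list was chosen with results known nothing is read from its share.

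The largest decrease on the second list was that of SDC1, a cell surface proteoglycan with an 8mer match. It had only 6 to 27 counts per sample, at 0.505 to 0.601 CPM with doxycycline and 0.794 to 2.03 CPM without it in miR-10b cells and 1.09 to 1.41 and 1.76 to 2.09 CPM in miR-10a cells, and an average log2 fold change of -1.06 (SE 0.22, adjusted p = 9.2e-04, edgeR). DESeq2 gave no adjusted p for it. SDC1 has 2 listed transcripts, so its level is that of 1 transcript, and shared reads appear to have been left out. PIK3CA, the catalytic subunit of a PI3 kinase, fell on average by 0.22 on the log2 scale (SE 0.041, adjusted p = 1.8e-04, edgeR), with 45.6 to 51.2 CPM with and 56.7 to 60.6 CPM without doxycycline in miR-10b cells. MAPRE1, a protein of growing microtubule ends, fell by 0.12 (SE 0.023, adjusted p = 4.5e-04), with 496.3 to 521.6 and 568.5 to 604.7 CPM in miR-10b cells. EPHA4, a receptor in axon guidance that was named after its values were seen, was also lower (-0.091, SE 0.022, adjusted p = 0.0043, edgeR). PIK3CA, MAPRE1 and EPHA4 each have a 7mer-m8 as their best match.

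**Figure D4:**
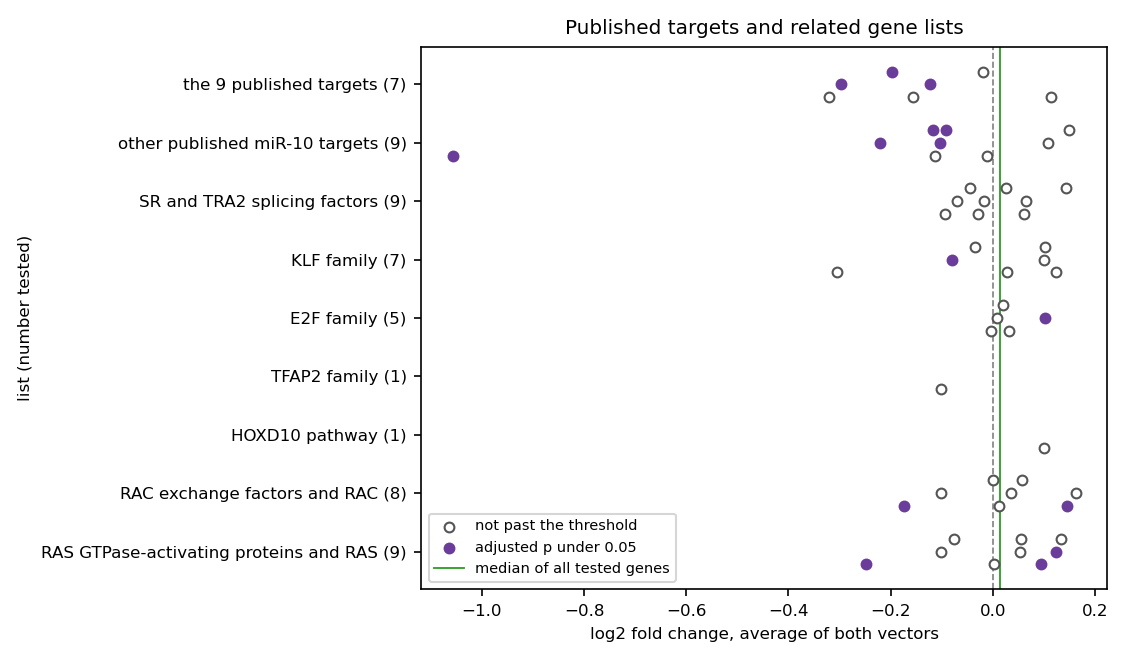
Average log2 fold change over both vectors of each tested gene in the 9 published targets and in the related lists, with the number tested in brackets. Filled points mark an adjusted p under 0.05 and the green line the median of all tested genes at 0.015. The lists were chosen with earlier results of these data known, so nothing is read from how the lower calls fall among them. The point beyond -1 is SDC1.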

How the data were processed

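Poly-A enriched libraries of 12 samples were sequenced by the authors as 50-bp single-end reads, mapped to hg19 and counted on RefSeq transcripts. The submitters' processing notes name STAR, Subread and featureCounts. The deposited values are raw counts per transcript, with the transcript length, without normalization. Each sample had 1 file of 51799 rows for 48101 transcripts, from which 3698 repeated rows with equal counts were dropped. Genes with 1 transcript held 92.84% of the counts, so that genes with several transcripts are measured poorly.

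Samples were grouped by vector and doxycycline as the labels give them. The library size was the sample's total count, as in the study's methods, and the 11451 genes with a mean above 10 counts were tested with edgeR 4.0.16 (quasi-likelihood test, R 4.3.3, Benjamini-Hochberg adjustment over all tested genes, threshold 0.05). All 4 groups of 3 entered 1 fit, with contrasts for each vector, their average and their difference. This code was checked on simulated data for 11345 genes. Of 100 genes given a log2 change of 0.5 it recovered 59% for miR-10a, 60% for miR-10b and 73% for their average, and of 100 given 1.0 it recovered 88%, 87% and 96%. No change below 0.5 was simulated, so these rates do not cover the smaller changes called for E2F7, TIAM1 and TRA2B. Both vectors were given the same changes. Among its calls 2.65%, 8.70% and 7.65% were false, the last 2 above the 5% that the threshold aims at. For 3 against 3 samples an exact permutation test cannot go below p = 0.1, so none is given. Limits from 0 counts cover counting error only.

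Seed matches were searched in the 3′UTR of the canonical protein-coding transcript in GENCODE 44 on GRCh37, the genome that hg19 names, with Python 3.11.15 and pandas 2.3.3. Alternatives were TMM factors, DESeq2 1.42.0, other count filters, counts summed over transcripts, a replicate block, fits of 1 vector alone and fits without each sample in turn. The text names the 9 published targets and, from each related list, at most 4 genes past the threshold by the size of their average change or, where none passed, the 2 with the highest mean count. The genes and lists were chosen with earlier results of these data known. None of the 12 samples was transduced with a GFP-only vector. Values of some genes on the related lists are not reported here.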

Additional observations from a re-analysis of the deposited data

Results flagged for a closer look

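The effect of doxycycline differed between the vectors by the interaction term of edgeR for 4 of the genes named above, and all 4 were lower with miR-10b relative to miR-10a. Of all 11451 tested genes 158 (1.38%) passed the threshold in this direction and 66 in the other. NRAS, KLF13 and MAPRE1 were named for passing the threshold, all as lower with miR-10b and on average. Nothing is therefore read from the shared direction. For E2F7 the difference of the log2 fold changes was -0.23 (SE 0.050, adjusted p = 0.0063). NRAS had -0.27 (SE 0.050, adjusted p = 0.0012), KLF13 had -0.21 (SE 0.051, adjusted p = 0.016) and MAPRE1 had -0.17 (SE 0.047, adjusted p = 0.041). The differences of E2F7 and NRAS stayed past the threshold with each sample left out. That of KLF13 was lost without miR-10a doxycycline replicate 1, miR-10a control replicate 1 or 3, or miR-10b control replicate 2. That of MAPRE1 was lost without any 1 of 7 samples, furthest without miR-10a control replicate 2 (-0.14, adjusted p = 0.17), and with the replicate block (adjusted p = 0.070). The comparison of the vectors is also one of 2 transduced cell populations with different precursor counts, and the part of this was not tested.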

How the results depend on the processing

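For miR-10a, 139 genes passed the threshold, against 275 in a fit of that vector alone and 75 (without miR-10a doxycycline replicate 1) to 268 (without miR-10b doxycycline replicate 2) with each sample left out. For the difference between the vectors the 224 genes became 343 without a count filter and 140 (without miR-10a control replicate 2) to 339 (without miR-10b doxycycline replicate 3) with each sample left out. The other counts stayed within 1.5 times. Of 436 alternative values for the published targets, 408 kept their direction and side of the threshold. The 11 that lost it are all of the average for TRA2B, among them that without a count filter (-0.12, adjusted p = 0.074). The 17 that changed sign belong to values that were not past the threshold. Summed over transcripts, KLF11 with miR-10a gave 0.032 and NF1 with miR-10a -0.092. With each sample left out, KLF4 ranged from -0.12 to 0.13 with miR-10a and from -0.098 to 0.028 on average, KLF11 from -0.25 to 0.025 with miR-10a, from -0.78 to 0.11 with miR-10b and from -0.44 to 0.0081 on average, NF1 from -0.010 to 0.21 and TRA2B from -0.043 to 0.019 with miR-10a. The replicate numbers did not pair the samples (correlation of deviations from -0.032 to 0.0082 for the same number), and the replicate block called 116 genes with miR-10a, 1638 with miR-10b, 1461 on average and 218 for the difference. Among the published targets it changed only the average of TRA2B (-0.12, adjusted p = 0.055), and elsewhere the calls of KLF13 on average (adjusted p = 0.052), SRSF4 with miR-10b (adjusted p = 0.060) and MAPRE1 for the difference. Depth limits TFAP2C, NF1 and KLF11, with at most 37 counts per sample.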

Other observations

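In the controls without doxycycline, harvested on day 14, the levels of TIAM1, KLF4 and E2F7 did not overlap between the 2 transduced populations. Those of TRA2B, TFAP2C, NF1 and KLF11 overlapped. The difference between the controls was not tested. In the controls TIAM1 had 125.7 ± 2.6 CPM with the miR-10a vector and 95.4 ± 4.7 CPM with the miR-10b vector (SD, n = 3), and KLF4 had 6.62 ± 0.90 and 8.73 ± 0.91 CPM. E2F7 controls were closer, at 227.7 ± 3.2 and 220.9 ± 0.3 CPM. Precursor counts without doxycycline were low: MIR10B had 2.89 to 4.45 CPM in the miR-10b controls and 0.482 to 1.04 CPM in the miR-10a controls, and MIR10A had 0.641 to 1.37 CPM in the miR-10a controls and 0 to 1 counts per sample in the miR-10b controls. The vector and the cell population cannot be told apart in these values.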
